A study of Homo sapiens with 30 samples.

Results

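Sibjeondaebo-tang is an herbal formula of Korean traditional medicine, used as a tonic, that adds Astragalus and cinnamon to the herbs of Palmul-tang. Its ethanol extract was given to HepG2 cells, a human liver cancer line that makes many hepatocyte proteins, and the medium dose of 100 µg/mL was set against the low dose of 20 µg/mL after 24 h. The samples were chosen by their dose labels, 3 libraries at medium and 3 at low, which were 6 of the 30 libraries of the series. Every gene that passed a filter on low counts was tested, which left 16083 of 60675 gene rows. Further groups compared here were Sibjeondaebo-tang high (500 µg/mL, 3 libraries), Palmul-tang medium and low (100 and 20 µg/mL, 3 libraries each) and vehicle (3 libraries). Extracts of Palmul-tang at high dose (500 µg/mL) and of Samul-tang at high, medium and low dose (500, 100 and 20 µg/mL) also entered the fit. They were not compared, but entered the filter on low counts, the scaling between libraries and the shared estimate of spread behind the p-values. Vehicle was 0.1% DMSO by the sample labels and 2% by the design text of the series. By the same text, more toxic extracts got reduced concentrations; the concentrations here were read from the sample labels. All libraries were of unmodified cells of 1 line, and the labels do not state whether replicates were grown as separate cultures, so the p-values speak of library-to-library spread, possibly technical.

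HepG2 cells are a common model for how liver cells meet plant compounds. The aryl hydrocarbon receptor (AHR), with its partner ARNT, binds flat aromatic molecules and switches on CYP1A1, while the oxidant sensor NRF2 raises detoxifying enzymes. Bone morphogenetic protein (BMP) signals act through SMAD factors on HAMP, the gene of the iron hormone hepcidin, and on the ID genes. The factor ATF4 raises ASNS when amino acids are short or translation is slowed, and EGR1 is an immediate early gene that serum response factor controls through CArG boxes.

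The stretches of 250 bases before the start sites of 4 of these genes are shown because their levels differed between the doses and because each holds the known motif of its pathway. Capitals mark GCGTG, the AHR-ARNT core, in CYP1A1, GGCGCC, a core of BMP-responsive elements, in HAMP, the 2 CArG boxes in EGR1, and TGATGNAA, the element bound by C/EBP and ATF factors, in ASNS. They are RefSeq sequences of GRCh38.p14, written 5′ to 3′ on the strand of the gene.
CYP1A1, chr15:74725529-74725778, minus strand: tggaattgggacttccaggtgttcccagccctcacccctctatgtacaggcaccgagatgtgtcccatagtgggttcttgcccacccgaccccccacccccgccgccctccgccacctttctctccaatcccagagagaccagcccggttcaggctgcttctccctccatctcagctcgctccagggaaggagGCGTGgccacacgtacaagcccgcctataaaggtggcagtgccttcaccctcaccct
HAMP, chr19:35282278-35282527, plus strand: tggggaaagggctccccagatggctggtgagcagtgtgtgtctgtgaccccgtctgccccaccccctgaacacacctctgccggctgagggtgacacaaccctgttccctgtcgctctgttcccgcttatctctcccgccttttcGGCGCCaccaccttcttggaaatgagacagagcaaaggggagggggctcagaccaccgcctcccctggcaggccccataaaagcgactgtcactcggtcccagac
EGR1, chr5:138465229-138465478, plus strand: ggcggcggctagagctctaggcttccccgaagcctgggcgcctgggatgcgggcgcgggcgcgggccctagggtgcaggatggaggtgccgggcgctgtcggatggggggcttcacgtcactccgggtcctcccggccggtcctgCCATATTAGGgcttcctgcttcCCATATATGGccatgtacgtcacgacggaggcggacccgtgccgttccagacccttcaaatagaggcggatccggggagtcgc
ASNS, chr7:97872409-97872658, minus strand: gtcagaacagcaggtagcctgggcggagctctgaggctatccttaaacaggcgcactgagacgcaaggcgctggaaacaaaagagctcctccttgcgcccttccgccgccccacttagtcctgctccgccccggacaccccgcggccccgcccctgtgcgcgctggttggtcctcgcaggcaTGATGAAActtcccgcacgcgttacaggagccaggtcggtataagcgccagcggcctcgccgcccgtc
The motifs were searched on both strands of 35116 RefSeq windows, which ran from 250 bases before to 50 bases after a start site. GCGTG stood in 36.5% of the windows, GGCGCC in 19.2%, TGATGNAA in 3.62% and a CArG box in 1.29%. Of the 18 genes that differed between the doses, 15 had a window, and GCGTG stood in at least 1 window of 10 of them (66.7%), against 57% of the tested genes with a window. GGCGCC stood in 7 of the 15 (46.7%), against 35.4% of tested genes. TGATGNAA stood in 3 of the 15 (20%: ASNS, DCDC2 and MBL2), against 2.81% of tested genes. A CArG box also stood in 3 (20%: EGR1, CYP1A1 and AKAP12), against 1.49%. The motifs were chosen to suit CYP1A1, HAMP, EGR1 and ASNS, which are counted here. Part of each share was therefore fixed in advance, and the shares test nothing. A match describes the letters and says nothing of binding.

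The 6 libraries held between 29439845 and 36105648 expected counts. All 10 of the hepatocyte markers passed the filter, and their summed level, in CPM (counts scaled to library size), was 65700 to 67100 at medium and 65700 to 67400 at low. Low replicate 3 stood apart, with 4.30 to 8.29 CPM of the fibroblast collagens COL1A1, COL1A2, COL3A1 and COL6A3. COL1A1 was at 0.192, 0.211 and 0.418 CPM at medium, against 0.298, 0.139 and 8.29 CPM at low, and COL1A2 was at 6.96 CPM in low replicate 3 and at 0 in the other 5 libraries. The 15 fibroblast markers summed to 12.1, 11.4 and 12 CPM at medium, against 12.1, 13.3 and 43.1 CPM at low (exact two-sided permutation p = 0.1, the smallest that 3 against 3 allows). TWIST1, 1 of the 15, was at 0 in all 6. In such bulk libraries a share of cells of another type and more RNA per cell cannot be told apart. Of the leukocyte markers, 3 were above 1 CPM, led by LYZ (1400 to 1560 CPM at medium, 1340 to 1440 CPM at low), and PTPRC, CD3E and TYROBP did not pass the filter. No squamous, lung or neural marker passed it. The 7 endothelial markers summed to 3.24, 3.41 and 3.34 CPM at medium, against 2.89, 2.87 and 2.91 CPM at low, with PECAM1 the highest of them and TEK and EMCN at 0. The 8 muscle markers summed to 4.94, 5.83 and 4.67 CPM at medium, against 4.47, 3.91 and 3.61 CPM at low, nearly all of it ACTA1, with MYOG at 0. Both sums were higher in every medium library, and their part in the results was not tested. Mitochondrial transcripts took 15.7%, 18.5% and 19.7% of counts at medium, against 15.7%, 17% and 15.8% at low, so that medium replicate 1 lay with the low libraries. The means were 18% ± 2.03 and 16.2% ± 0.745 (SD, n = 3 each, exact two-sided permutation p = 0.3).

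Few genes passed the threshold for the step in dose, which does not mean that few changed. With edgeR's quasi-likelihood test and a threshold of 0.05 on the adjusted p, 16 genes rose (0.0995%) and 2 fell (0.0124%), which is 18 of 16083 or 0.112%. The median log2 fold change of all tested genes was 0.00283, so positive values were about as common as negative ones. An unadjusted p under 0.05 was found in 1091 genes (6.78%), 533 higher (3.31%) and 558 lower (3.47%). All 18 genes code for proteins, and their medium and low libraries did not overlap, which was so for 16.1% of all tested genes. Only 3 of them changed by 1.5-fold or more, namely CYP1A1, HAMP and FMN1. The number of calls fell whichever of the 6 libraries was left out. It was 3 without medium replicate 1 or without low replicate 2, and 5 without low replicate 3 (CYP1A1, AKAP12, HAMP, EGR1 and DCDC2). There were 8 without low replicate 1, 10 without medium replicate 3 and 12 without medium replicate 2. Each such fit has 1 library fewer at a dose, so the part of a single library and that of the smaller group cannot be told apart. CYP1A1 and AKAP12 passed in all 14 alternative analyses, EGR1 in 13 of 14, HAMP in 10 of the 13 that tested it, and each of the other 14 genes in 6 to 10. Of the 6 fits that left out 1 library, none kept the calls of UGT2B4, MBL2, FMN1 and TRIB1. Just 1 of the 6 kept each of ITGA2, UGT1A1, CPLX2, STC2 and CAVIN2. The balance of directions also moved with the analysis: 19 genes were higher and 7 lower after correction for GC content and length, 32 and 15 in DESeq2, 52 and 38 in a fit of the compared groups alone, and 85 and 89 without the filter on low counts.

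**Figure D1:**
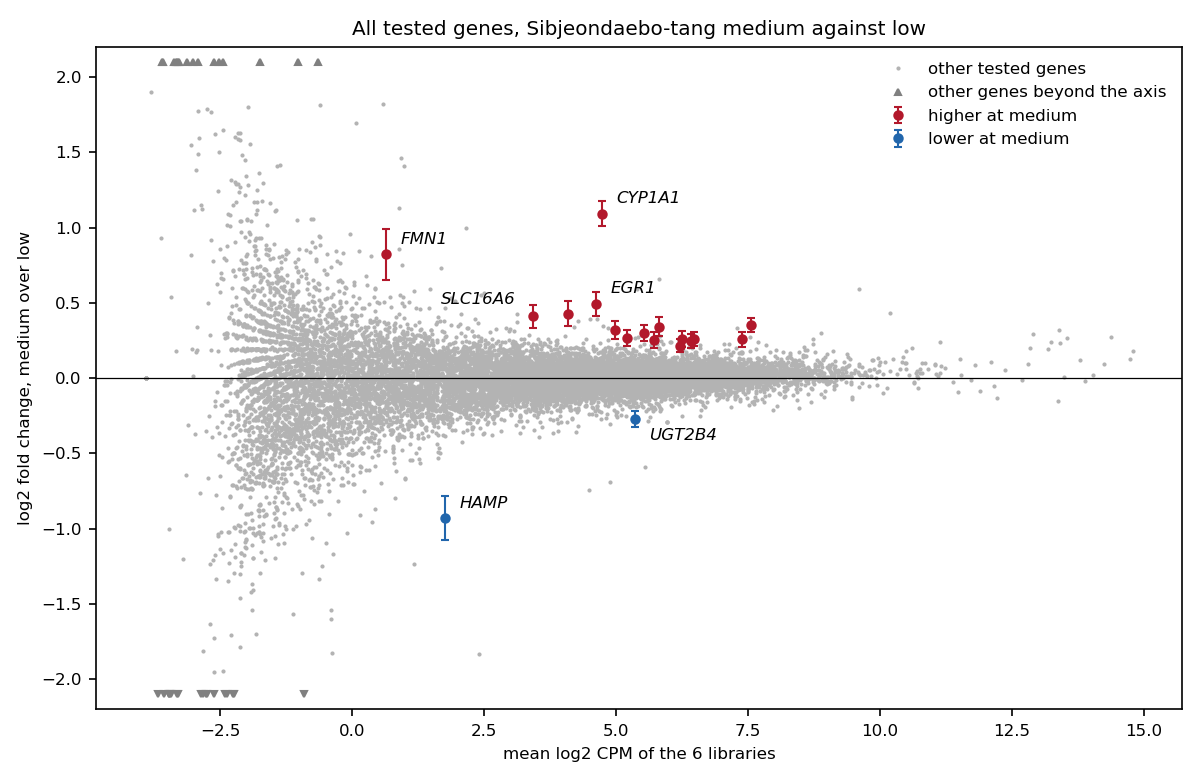
Each point is 1 of 16083 genes, with the mean log2 CPM of the 6 libraries on the horizontal axis and the log2 fold change of medium over low on the vertical axis. Red points (higher at medium) and blue points (lower at medium) passed the threshold, with bars of ± 1 SE; grey triangles at the edges are 16 genes above 2 and 18 below -2, none of which passed. CYP1A1 at 1.09 and HAMP at -0.93 lie farthest from 0 among the genes that passed.

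CYP1A1 had the smallest adjusted p, and 2 of 9 tested UDP-glucuronosyltransferases passed, 1 higher and 1 lower. CYP1A1 (ENSG00000140465, chromosome 15, 74719542 to 74725610, GRCh38), the dioxin-inducible cytochrome P450, was at 37.6, 37.6 and 40.5 CPM at medium, against 17.9, 19.3 and 17.1 CPM at low. Every medium library was well above every low one, and the log2 fold change was 1.09 ± 0.083 (SE, edgeR adjusted p = 5.08e-09). UGT1A1 (chromosome 2, 233760248 to 233773299), which conjugates bilirubin, had 21.5, 18.2 and 19.5 CPM at medium, against 14.6, 14.9 and 14.5 CPM at low. It rose by a log2 of 0.43 ± 0.082 (adjusted p = 0.0185), but UGT1A genes share their last exons, so reads are divided among them by estimate and the value is uncertain. UGT2B4 (chromosome 4, 69480165 to 69526014), which conjugates bile acids and steroids, was at 36.9, 36.7 and 38.02 CPM at medium, against 43.5, 44.6 and 46.5 CPM at low. It was 1 of the 2 genes that fell, with a log2 fold change of -0.27 ± 0.053 (adjusted p = 0.0214). No fit that left out a library kept this call.

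Other targets of the AHR gave a mixed picture. The counts at an unadjusted p under 0.05 stand beside 3.31% higher and 3.47% lower over all tested genes. Of 10 tested members of that list, CYP1A1 alone passed, and 4 were higher at an unadjusted p under 0.05, with none lower and a median log2 fold change of 0.05, or 0.028 without low replicate 3. ALDH3A1, an aldehyde dehydrogenase, narrowly missed the threshold at 2.66, 2.35 and 2.26 CPM at medium, against 1.49, 1.67 and 1.14 CPM at low (log2 0.75 ± 0.163, adjusted p = 0.054). TIPARP, a target that feeds back on the receptor, had a log2 fold change of 0.06 (adjusted p = 0.927). CYP1B1 was below 0.4 CPM in all 6 libraries. Among 30 targets of NRF2 none passed, with 5 higher (3 without medium replicate 1 or without low replicate 3) and 2 lower at an unadjusted p under 0.05 and a median of 0.07. The quinone reductase NQO1 was at 418, 395 and 404 CPM at medium, against 347, 353 and 356 CPM at low (log2 0.20 ± 0.052, adjusted p = 0.169), and the reductase AKR1B10 at 48.04, 44.7 and 47.2 CPM, against 37.8, 39.03 and 39.2 CPM (0.27 ± 0.061, adjusted p = 0.0763). Neither overlapped between the doses, as was so for 16.1% of all tested genes. GCLM (0.15, adjusted p = 0.682), the cystine carrier SLC7A11 (0.20, 0.738) and heme oxygenase HMOX1 (0.07, 0.918) were farther from the threshold.

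**Figure D2:**
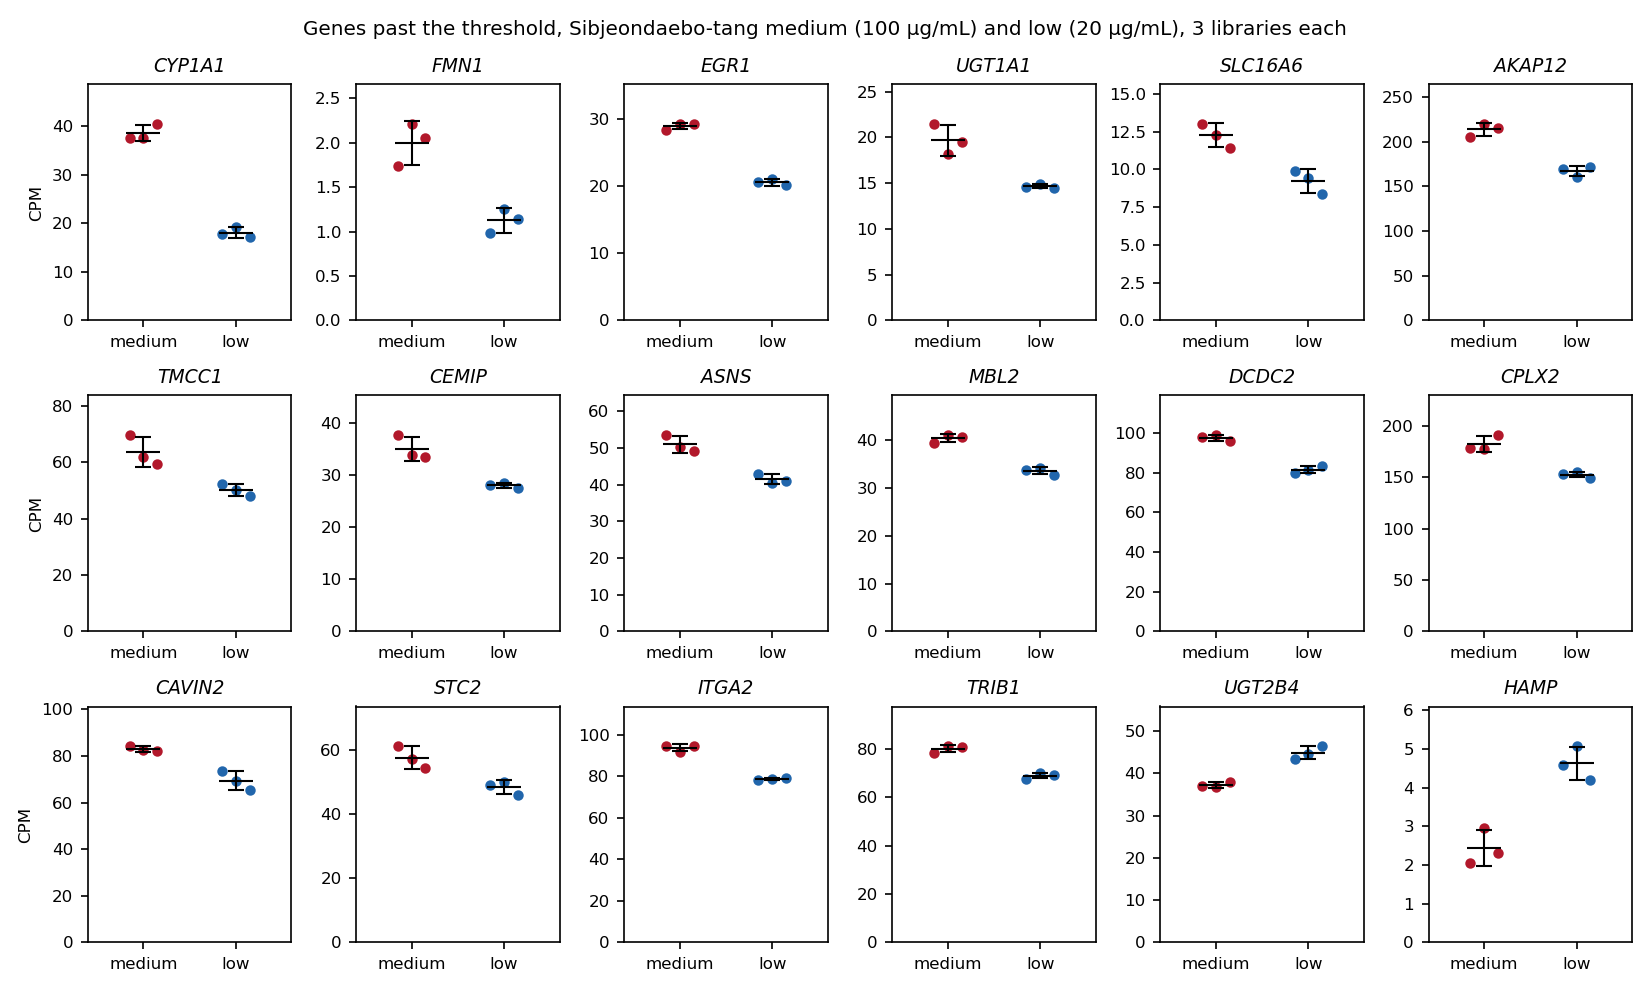
Levels in CPM of the 18 genes that passed the threshold, 1 panel per gene, with the 3 medium libraries (red) left of the 3 low libraries (blue); black lines are means and bars ± 1 SD, and each axis starts at 0. The libraries of the doses are apart in every panel, and UGT2B4 and HAMP are lower at medium.

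HAMP was the other gene that fell, and it was the single call among the BMP targets. HAMP (ENSG00000105697, chromosome 19, 35280716 to 35285143), whose product hepcidin limits the release of iron into blood, was at 2.05, 2.95 and 2.30 CPM at medium, against 4.58, 5.08 and 4.21 CPM at low. The doses did not overlap, and HAMP fell by 0.93 ± 0.148 on the log2 scale (adjusted p = 0.00231). The adjusted p was at most 0.0743 over its alternatives, and 2 of the 6 fits that left out a library lost the call. ID3 and ID1 encode inhibitors of helix-loop-helix factors and are textbook BMP targets. ID3 was at 10.7, 10.01 and 9.61 CPM at medium, against 13.8, 13.1 and 12.9 CPM at low (log2 -0.39 ± 0.088, adjusted p = 0.0767). ID1 was at 72.5, 70.8 and 65.1 CPM, against 82.7, 85.5 and 79.6 CPM (-0.25 ± 0.069, adjusted p = 0.198). Neither passed, although all 3 medium libraries lay below all 3 low ones for each. The doses did not overlap in 16.1% of all tested genes. Of the 14 tested members of the BMP and SMAD list, 1 passed, 4 were lower and 1 higher at an unadjusted p under 0.05, and the median was -0.07, which shrank to -0.02 without medium replicate 3. Over all tested genes 3.47% were lower and 3.31% higher at that level.

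Genes of signal response were next. EGR1 (ENSG00000120738, chromosome 5, 138465490 to 138469315), a zinc finger factor made soon after growth signals, was at 28.4, 29.3 and 29.2 CPM at medium, against 20.5, 21.1 and 20.1 CPM at low. The spread within each dose was small beside the gap, and EGR1 rose by a log2 of 0.49 ± 0.078 (adjusted p = 0.00231). In the list of 25 immediate early genes and feedback genes of the ERK kinase, EGR1 alone passed. At an unadjusted p under 0.05, 9 of the 25 were higher and none lower, 22 were positive, and the median was 0.15, or 0.10 without medium replicate 1. The shares over all tested genes were 3.31% higher and 3.47% lower. DUSP6, a phosphatase that shuts off ERK, had 126, 120 and 130 CPM at medium, against 114, 110 and 114 CPM at low (log2 0.15 ± 0.049, adjusted p = 0.405).

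AKAP12 (ENSG00000131016, chromosome 6, 151239999 to 151358557), a scaffold that holds protein kinases A and C, was at 205, 220 and 216 CPM at medium, against 170, 160 and 172 CPM at low. It rose by a log2 of 0.35 ± 0.046 (adjusted p = 1.23e-04). TRIB1 (chromosome 8), a pseudokinase that directs the breakdown of C/EBP alpha, had 78.3, 81.2 and 80.6 CPM at medium, against 67.7, 70.02 and 69 CPM at low, a rise of 0.22 ± 0.046 (adjusted p = 0.0461). It was the smallest change among the 18 genes.

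The amino acid response added a pair of genes. ASNS (ENSG00000070669, chromosome 7, 97852118 to 97872542), asparagine synthetase, was at 53.5, 50.1 and 49.2 CPM at medium, against 43, 40.3 and 40.9 CPM at low. It rose by a log2 of 0.30 ± 0.05 (adjusted p = 0.00446), with no overlap. STC2 (chromosome 5, 173314713 to 173329503), a secreted glycoprotein induced by endoplasmic reticulum stress, had 61.3, 57.2 and 54.2 CPM at medium, against 48.9, 50.1 and 46 CPM at low (0.25 ± 0.052, adjusted p = 0.0342). These 2 were the calls among 26 tested ATF4 targets, of which 5 were higher and none lower at an unadjusted p under 0.05, with a median of 0.06. Without medium replicate 1 that median was 0.026, and 3 were higher without low replicate 2 or without low replicate 3. All tested genes gave 3.31% higher and 3.47% lower at an unadjusted p under 0.05. DDIT3, another ATF4 target, was at 7.76, 7.27 and 8.84 CPM at medium, against 7.65, 9.23 and 7.46 CPM at low, and the doses overlapped (log2 -0.03, adjusted p = 0.983). None of the 20 aminoacyl-tRNA synthetases, which load amino acids onto tRNA, passed, but 19 had a positive log2 fold change and 7 were higher at an unadjusted p under 0.05 (4 without medium replicate 3 or without low replicate 2), with a median of 0.08. WARS1 was the first of them at 106, 107 and 107 CPM at medium, against 96, 95.7 and 97.9 CPM at low (0.14 ± 0.045, adjusted p = 0.39).

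A further 9 genes rose. FMN1 (ENSG00000248905, chromosome 15, 32765545 to 33194733), a formin that builds actin filaments, was at 1.73, 2.21 and 2.05 CPM at medium, against 0.982, 1.25 and 1.14 CPM at low. Its log2 fold change of 0.82 ± 0.169 (adjusted p = 0.0342) rested on the lowest level of the 18 genes. As with UGT2B4, MBL2 and TRIB1, no fit that left out a library kept the call of FMN1. SLC16A6 (chromosome 17, 68267026 to 68291267), of the monocarboxylate transporter family, had 13.02, 12.3 and 11.5 CPM at medium, against 9.91, 9.40 and 8.35 CPM at low (0.41 ± 0.075, adjusted p = 0.0128). TMCC1 (chromosome 3, 129647792 to 129893606), a protein of the endoplasmic reticulum membrane, had 69.7, 61.6 and 59.4 CPM, against 52.2, 50.2 and 48.1 CPM (0.34 ± 0.064, adjusted p = 0.0142). In TMCC1 medium replicate 1 stood above the other two. CEMIP (chromosome 15, 80779343 to 80951776), which takes part in the breakdown of hyaluronan, had 37.7, 33.9 and 33.4 CPM, against 28.01, 28.5 and 27.6 CPM (0.32 ± 0.059, adjusted p = 0.0128).

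The other 5 rose by less than 0.27 on the log2 scale. MBL2 (chromosome 10, 52765380 to 52771700), mannose-binding lectin of the complement system, had 39.6, 41.2 and 40.6 CPM at medium, against 33.9, 34.3 and 32.8 CPM at low (0.26 ± 0.054, adjusted p = 0.0304). DCDC2 (chromosome 6, 24171756 to 24358052), a microtubule-binding protein of cilia, had 97.7, 99.03 and 95.8 CPM, against 79.9, 81.1 and 83.3 CPM (0.26 ± 0.046, adjusted p = 0.00989). CPLX2 (chromosome 5, 175796310 to 175884020), a complexin that binds the SNARE machinery of secretion, had 178, 178 and 191 CPM, against 153, 155 and 150 CPM (0.26 ± 0.05, adjusted p = 0.0185). These gaps were several times the spread within a dose. CAVIN2 (chromosome 2, 191834302 to 191847255), a coat protein of caveolae, had 84.4, 82.5 and 82 CPM, against 73.7, 69.2 and 65.4 CPM (0.26 ± 0.053, adjusted p = 0.0358). ITGA2 (chromosome 5, 52989326 to 53094779), the alpha subunit of a collagen receptor, had 94.7, 91.8 and 94.8 CPM, against 78.4, 78.9 and 79.4 CPM (0.25 ± 0.046, adjusted p = 0.0142). Low replicate 3, with the higher collagen transcripts, was the highest low library in ITGA2 and DCDC2 and the lowest in MBL2, CPLX2 and CAVIN2. Among the other genes that rose, it was lowest in CYP1A1, EGR1, UGT1A1, STC2, CEMIP, SLC16A6 and TMCC1. It was highest in AKAP12 and in between in ASNS, FMN1 and TRIB1. Of the genes that fell, it was lowest in HAMP and highest in UGT2B4. ITGA2 and FMN1 fell outside the rule for named genes and were chosen after their values were seen.

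In several further lists no gene passed. A larger share of members was higher at an unadjusted p under 0.05 than over all genes (3.31% higher and 3.47% lower). Of 24 targets of the hypoxia factor HIF, 7 were higher and none lower, 23 were positive, and the median was 0.15. Without medium replicate 1 that median was 0.07 and 4 were higher, while 12 were higher without low replicate 1 and 11 without medium replicate 2. PDK1, a kinase that holds pyruvate back from mitochondria, had 52.3, 48 and 48.2 CPM at medium, against 44.4, 42 and 40.9 CPM at low (0.22 ± 0.052, adjusted p = 0.0864). PFKFB3, which makes an activator of glycolysis, had 8.82, 5.27 and 6.27 CPM, against 6.70, 5.44 and 4.40 CPM, and the doses overlapped (0.30 ± 0.2, adjusted p = 0.875). In these genes replicate 1 was the highest library of each dose. VEGFA, the vascular growth factor, had a log2 fold change of 0.03 (adjusted p = 0.975).

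At an unadjusted p under 0.05 all tested genes gave 3.31% higher and 3.47% lower. Of 19 glycolysis enzymes 5 were higher and 1 lower at that level, with a median of 0.10. Without medium replicate 1 the median was 0.05, with 1 higher and 1 lower, and 3 were higher without low replicate 2 or without low replicate 3. Lactate dehydrogenase LDHA was at 1815, 1584 and 1614 CPM at medium, against 1486, 1466 and 1414 CPM at low (0.20 ± 0.053, adjusted p = 0.186). Of 13 tested inflammatory and NF-kB genes 6 were higher and none lower, with a median of 0.20. ICAM1, an adhesion receptor for leukocytes, had 103, 101 and 105 CPM, against 89.7, 87.7 and 91.9 CPM (0.20 ± 0.047, adjusted p = 0.105). All 21 tested tubulins, actins and their partners were positive, 7 at an unadjusted p under 0.05 (3 without medium replicate 3), with a median of 0.10, and the tropomyosin TPM4 came first (0.18 ± 0.055, adjusted p = 0.314). The secreted matrix protein SPP1 had 501, 517 and 546 CPM, against 416, 422 and 433 CPM (0.30 ± 0.091, adjusted p = 0.39).

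**Figure D3:**
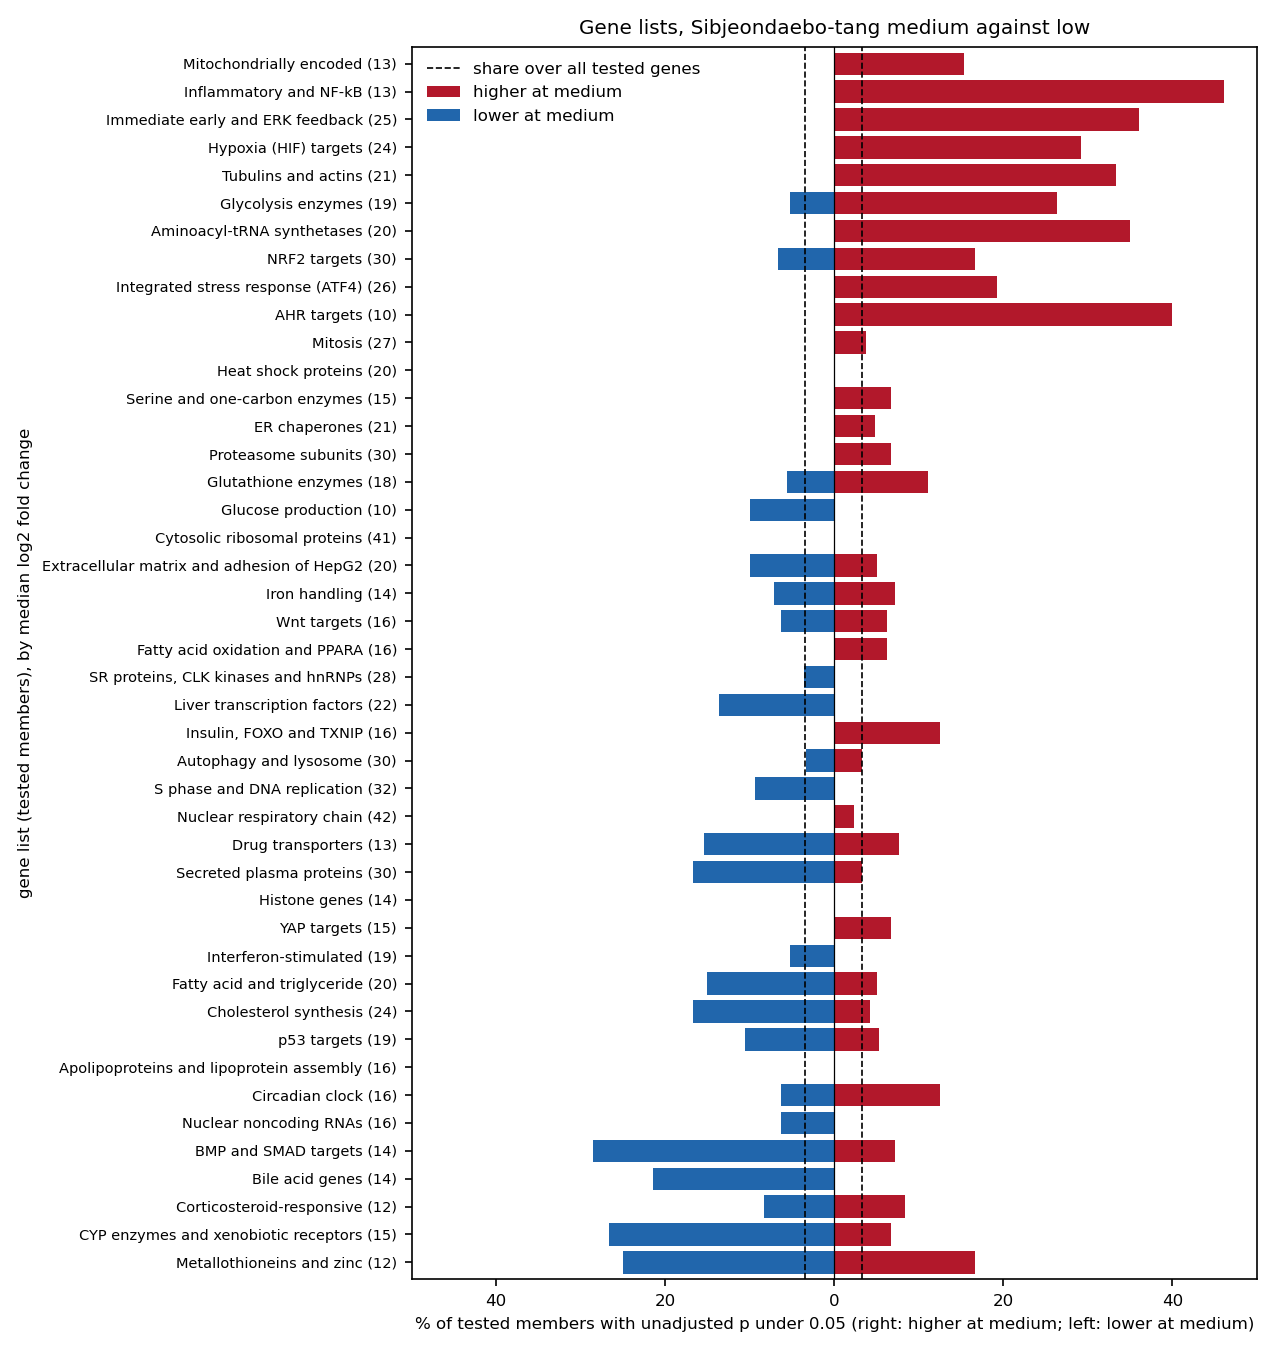
Percent of the tested members of each list (number in brackets) with an unadjusted p under 0.05, to the right where higher at medium (red) and to the left where lower (blue), in order of the list's median log2 fold change. Dashed lines are the shares over all tested genes, 3.31% higher and 3.47% lower; inflammatory genes, AHR targets, immediate early genes and aminoacyl-tRNA synthetases reach farthest right and BMP and SMAD targets farthest left.

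The 13 transcripts of the mitochondrial genome were all positive, with a median of 0.24 and 2 higher at an unadjusted p under 0.05, and none passed. Over all tested genes 3.31% were higher at that level. MT-ND6, a subunit of complex I, had 706, 1246 and 951 CPM at medium, against 614, 663 and 646 CPM at low (0.59 ± 0.212, adjusted p = 0.56). Medium replicates 2 and 3 held the high values, and without medium replicate 3 and low replicate 3 the median of the list was 0.12. With 1 library left out the median was 0.15 (without medium replicate 3) to 0.34 (without medium replicate 1). Of the 13, 8 were higher at an unadjusted p under 0.05 without medium replicate 1, 0 without medium replicate 2, and 1 without medium replicate 3, low replicate 1 or low replicate 3. The 42 tested nuclear genes of the respiratory chain had a median of -0.01.

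The following lists of liver functions held no call, and their counts are at an unadjusted p under 0.05. Over all tested genes 3.31% were higher and 3.47% lower at that level. Small counts in short lists are given as values only. Of 15 cytochrome P450 genes and xenobiotic receptors 4 were lower and 1 higher, with a median of -0.10, or -0.04 without medium replicate 3, and 1 was lower without low replicate 2. CYP4F12 had 32.5, 33.1 and 30.2 CPM at medium, against 35.3, 36.2 and 39.1 CPM at low (-0.21 ± 0.057, adjusted p = 0.192). Of 14 bile acid genes 3 were lower and none higher (1 lower without medium replicate 2 or without low replicate 2), with a median of -0.08. The bile acid receptor NR1H4 had 50.7, 48.04 and 49.1 CPM, against 54.6, 55.01 and 59.7 CPM (-0.20 ± 0.047, adjusted p = 0.113). CYP7A1, whose enzyme sets the pace of bile acid synthesis, overlapped between the doses (-0.16 ± 0.133, adjusted p = 0.918). Of 22 liver transcription factors 3 were lower and none higher (1 lower without medium replicate 2 or without low replicate 1), of 20 fatty acid and triglyceride genes 3 were lower and 1 higher, and of 13 drug transporters 2 were lower and 1 higher.

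Of 12 metallothioneins and zinc genes 3 were lower and 2 higher (1 lower without low replicate 2), with a median of -0.12. MT1F was at 36.3, 38.2 and 38.8 CPM at medium, against 44.5, 51.2 and 43.1 CPM at low (-0.29 ± 0.122, adjusted p = 0.65), and MT1X at 28.4, 25.3 and 24.7 CPM, against 29.5, 35.1 and 28 CPM (-0.24 ± 0.123, adjusted p = 0.769). Reads of these near-identical genes are divided by estimate, so both are uncertain. Of 30 secreted plasma proteins 5 were lower and 1 higher (3 lower without low replicate 3), with a median of -0.02, and albumin (ALB) was at 10400, 9819 and 9883 CPM, against 11530, 10810 and 11100 CPM (-0.15 ± 0.051, adjusted p = 0.451). The levels of ALB did not overlap between the doses, which was so for 16.1% of all tested genes, and the test did not call it.

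Heat shock, cholesterol and replication genes held no call. Their counts are again at an unadjusted p under 0.05, beside 3.31% higher and 3.47% lower over all tested genes. Among 20 heat shock proteins no gene had an unadjusted p under 0.05 and the median was 0.04, and HSPA1A, whose reads are shared with its near-identical copy HSPA1B, stood at 118, 115 and 115 CPM at medium, against 120, 115 and 112 CPM at low. Of 24 cholesterol synthesis genes 4 were lower and 1 higher, with 5 lower without medium replicate 1 and 1 or 2 lower without any other of the 6 libraries. The list had a median of -0.03, and HMGCS1 was at -0.02 (adjusted p = 0.985). Of 32 DNA replication and S phase genes 3 were lower, or 0 to 2 with 1 library left out, with a median of 0.00 after rounding, and E2F2 was at -0.12 (adjusted p = 0.895). The cell cycle inhibitor CDKN1A (0.02, adjusted p = 0.982), TXNIP (0.07, 0.9) and the nuclear RNA MALAT1 (0.02, 0.982) overlapped between the doses.

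The next step up in dose, from medium to high, showed whether the 18 genes went on in the same direction. Both comparisons use the medium libraries, so the values are given side by side only. High against medium called 1786 genes (11.1%), 810 higher (5.04%) and 976 lower (6.07%), a split that became 564 and 1102 with median-ratio size factors and 1719 and 992 with the GC and length offset. CYP1A1 averaged 11.3 CPM in vehicle, 18.1 CPM at low and 38.6 CPM at medium and was at 124, 127 and 160 CPM at high, and the log2 fold change of high over medium was 1.83 ± 0.076 (adjusted p = 1.61e-15). HAMP averaged 6.14 CPM in vehicle, 4.62 CPM at low and 2.43 CPM at medium and was at 0.538, 0.863 and 0.691 CPM at high (-1.77 ± 0.208 for high over medium, adjusted p = 3.54e-07). Of the 16 genes that rose at medium, 12 were also higher at high and 15 had a positive value.

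EGR1, UGT2B4, TRIB1, DCDC2 and FMN1 were not called at the next step. EGR1 averaged 21.3 CPM in vehicle, 20.6 CPM at low, 29 CPM at medium and 31.7 CPM at high (0.13 ± 0.077 for high over medium, adjusted p = 0.31). UGT2B4 averaged 39.01 CPM in vehicle, 44.9 CPM at low, 37.2 CPM at medium and 36.3 CPM at high. Its low libraries lay above those of vehicle, while those of EGR1 overlapped with vehicle. FMN1 averaged 1.71 CPM in vehicle, 1.12 CPM at low, 2 CPM at medium and 1.76 CPM at high, so that the low libraries were the ones that stood apart. The vehicle libraries carry a label prefix of their own, so extract against vehicle and 1 label set against another cannot be told apart.

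**Figure D4:**
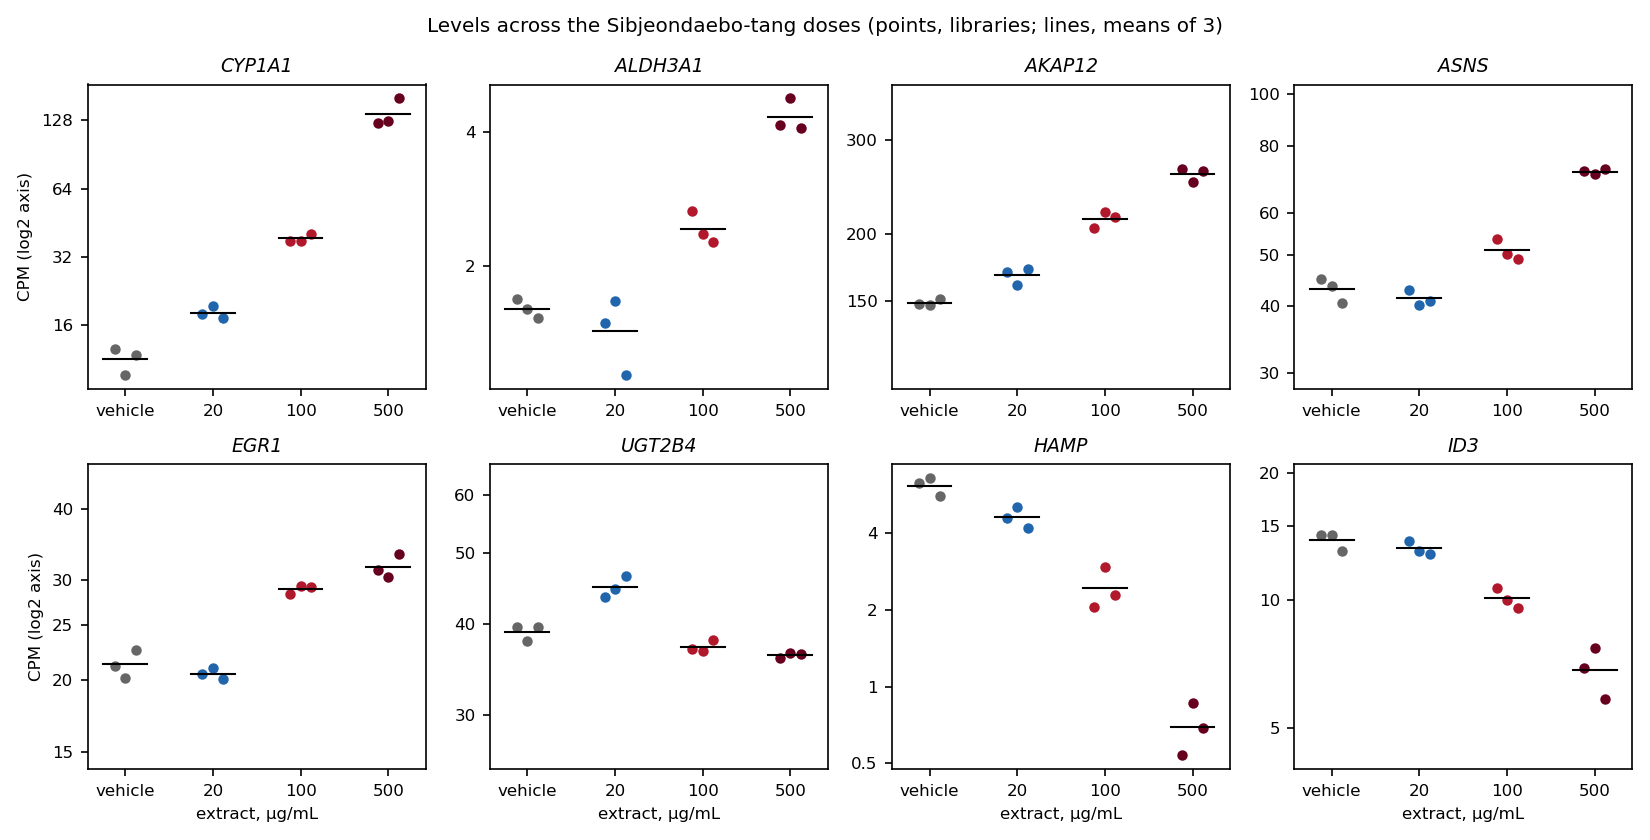
Levels in CPM on a log2 axis for 8 genes in vehicle and at 20, 100 and 500 µg/mL of Sibjeondaebo-tang extract; points are libraries and lines means of 3. CYP1A1, ALDH3A1 and AKAP12 are highest and HAMP and ID3 lowest at 500 µg/mL, while EGR1 and UGT2B4 lie close together at 100 and 500 µg/mL.

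Palmul-tang, which lacks the added herbs, was given at the same 2 doses in other libraries. Doses are per mass of extract, so the amounts of the shared herbs need not be equal between the formulas. Palmul-tang medium against low called 45 genes (0.28%), 39 higher (0.242%) and 6 lower (0.0373%). The formulas shared 11 called genes, 10 higher and 1 lower in both, which is 61.1% of the 18 and 24.4% of the 45. Of the 18 genes 17 had the same sign with Palmul-tang, and 16 (88.9%) had an unadjusted p under 0.05 there, against 5.91% of all tested genes. The sizes were close in CYP1A1 (1.09 ± 0.083 with Sibjeondaebo-tang and 1.13 ± 0.085 with Palmul-tang), HAMP (-0.93 ± 0.148 and -0.90 ± 0.154) and AKAP12 (0.35 ± 0.046 and 0.34 ± 0.047).

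The difference between the formulas in this step was tested as an interaction. No gene passed in edgeR (428 at an unadjusted p under 0.05, 2.66%) or in DESeq2, and 74 passed in edgeR without the filter on low counts. On simulated counts the interaction test recovered 10% of 50 genes changed by 1.2-fold and 76% of 50 changed by 1.5-fold. The absence of calls therefore does not show that the formulas acted alike. ASNS rose with Sibjeondaebo-tang (0.30 ± 0.05) and was at 0.10 ± 0.051 with Palmul-tang (adjusted p = 0.843), a difference of 0.20 ± 0.071 with an unadjusted p of 0.00975 and an adjusted p of 1. FMN1 was at -0.16 ± 0.171 with Palmul-tang, a difference of 0.98 ± 0.24 with an unadjusted p of 3.05e-04. These were the 2 of the 18 genes with an unadjusted p under 0.05 for the difference. PDK1 went the other way, at 0.22 ± 0.052 with Sibjeondaebo-tang and 0.48 ± 0.051 with Palmul-tang, a difference of -0.25 ± 0.073 (unadjusted p = 0.00148), and PFKFB3 was at 0.30 ± 0.2 and 1.15 ± 0.19. Of the 24 HIF targets 9 were called with Palmul-tang and none with Sibjeondaebo-tang, with medians of 0.15 for Sibjeondaebo-tang and 0.31 for Palmul-tang. None of these differences passed after adjustment.

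**Figure D5:**
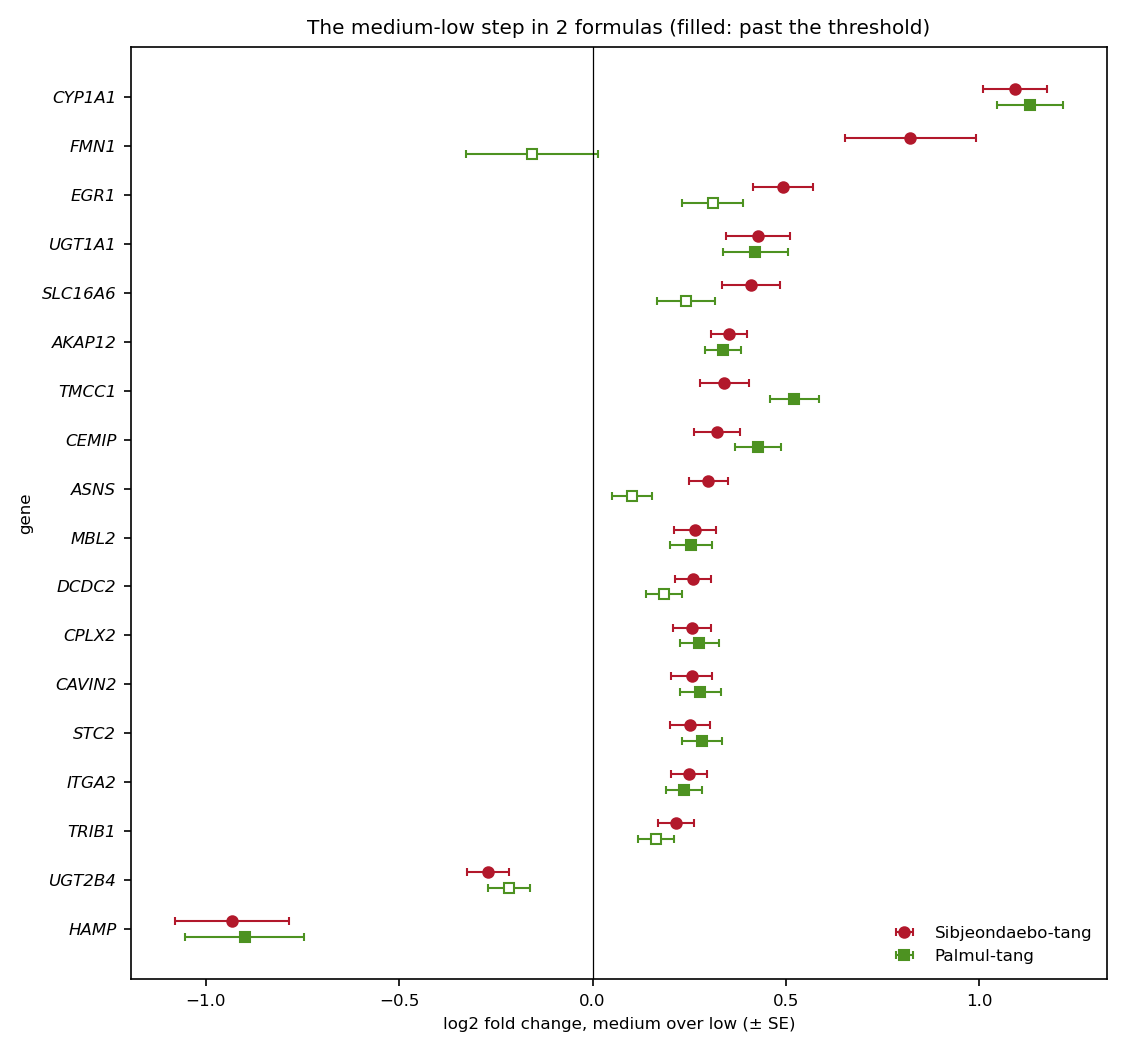
Log2 fold changes of medium over low with ± 1 SE for the 18 genes, Sibjeondaebo-tang (red circles) above Palmul-tang (green squares), filled where the adjusted p was under 0.05. The formulas lie on the same side of 0 in 17 of the 18 genes, with FMN1 as the exception.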

How the data were processed

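Expression was measured by strand-specific paired-end sequencing of mRNA libraries from HepG2 cells, per the labels' protocols. The deposited table holds the authors' expected counts for each gene, in which reads that fit several genes are divided by estimate, so 8.68% of the values of the 6 libraries were not exactly whole (no tolerance). Per the submitters' processing notes reads were handled with RSEM 1.3.3, STAR 2.7.3a, Trim Galore 0.6.5 and FastQC 0.11.9, and the builds named are GRCh38 and hg38. The annotation release was not given in the sources used here. A total of 240 columns belonged to no sample used here.

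The expected counts were rounded, filtered with filterByExpr (minimum count 10, minimum total 15) and scaled by TMM. A robust quasi-likelihood model in edgeR 4.0.16 (R 4.3.3) covered 27 libraries of 10 groups, with totals of 21570416 to 37707232. It had 17 residual degrees of freedom, and the biological coefficient of variation was 5.47%. Tests were two-sided, adjusted by Benjamini-Hochberg over all 16083 genes, with a threshold of 0.05. Standard errors were derived from F as the size of the log2 fold change over its root. Levels are CPM with TMM factors and are not compared between genes. Symbols matched 56558 of 60675 rows, and positions are those of GENCODE 29.

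The samples and gene lists were chosen with earlier results of these data known. Named are up to 12 called genes each way with the largest change among those with a mean log2 CPM of at least 2 and no overlap between the doses, up to 4 called members of a list or, with none called, up to 2 members with the smallest adjusted p, and a set of genes always given. Within a dose, pairs of libraries differed by 1.66 to 3.26 times what counting noise gives, and no library appeared to be a copy of another. For Palmul-tang, same-numbered medium and low libraries deviated together (correlations of 0.223, 0.198 and 0.366 over 9609 genes), a check read from the data. The test was checked on simulated counts, with changes set in genes above the lowest counts. It recovered 40% of 50 genes changed by 1.2-fold and 90% of 50 changed by 1.5-fold, so small changes are often missed. It also called 9 of 15883 unchanged genes. The simulation held 50 genes at each of the folds 1.2, 1.5, 2 and 3, more than the 18 genes called here. More changed genes ease the adjusted threshold, so recovery in these data may be lower. Alternatives were DESeq2 1.42.0, median-ratio factors, dropping the low-count filter, fitting just the groups compared, a replicate block, a GC and length offset, and each replicate left out; leaving out both replicates 3 was added after seeing the data. Sequences and start sites are from RefSeq.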

Additional observations from a re-analysis of the deposited data

Results flagged for a closer look

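Fibroblast marker transcripts were far higher in 1 library; their source was not tested. The 11 fibroblast markers that did not pass the filter on low counts summed to 18.7 CPM in Sibjeondaebo-tang low replicate 3, against at most 0.293 CPM in the other 26 libraries, with the vehicle libraries among them. COL1A2 (6.96 CPM), COL6A3 (4.55 CPM), COL3A1 (4.30 CPM) and DCN (1.90 CPM) made up most of it. Without that library CYP1A1, AKAP12, HAMP, EGR1 and DCDC2 passed the threshold for medium against low.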

How the results depend on the processing

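None of the 18 genes changed direction in any of the alternatives that tested it. Against 18 calls, DESeq2 gave 47 (16 of the 18 among them, 8911 genes with an adjusted p), no filter on low counts 174 (17 of the 18), a fit of the compared groups alone 90 (all 18), and the GC and length offset 26. Leaving out 1 library gave 3 to 12 calls, and leaving out both replicates 3 gave 2. The same-numbered medium and low libraries of Sibjeondaebo-tang gave correlations of 0.202, -0.0232 and 0.11, so replicate 2 did not meet the level of 0.1 that was asked of every pair, and the replicate block gave 25 calls, or 34 with the GC and length offset; replicates 1 and 3 correlated best with their own number and replicate 2 did not. For Palmul-tang the replicate block gave 65 calls, or 77 with the offset, against 45, DESeq2 70, no filter 163, and leaving out 1 library 17 to 40. The interaction gave 0 calls except without the filter, where it gave 74. For high against medium the offset gave 2711 calls, 2887 with the block, against 1786, and leaving out 1 library 1066 to 1542. The difference in mitochondrial share was 0.923 to 2.9 percentage points and that in summed fibroblast markers -16.4 to -0.898 CPM with 1 library left out.

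Of 1567 values of named genes under alternatives 11 changed sign, all in genes that were not called. With libraries left out, COL1A1 ran from -3.95 to 0.32 (this without low replicate 3), HMGCS1 from -0.0399 to 0.00342, DDIT3 from -0.169 to 0.0739, MALAT1 from -0.0188 to 0.0529, VEGFA from -0.00675 to 0.0593, CDKN1A from -0.00863 to 0.0501 and HSPA1A from -0.015 to 0.033. HSPA1A was also at -0.00597 with no filter and at -0.00823 without both replicates 3, and DDIT3 at 0.028 without medium replicate 2. The cause was not tested. The smallest change called was 0.22 on the log2 scale, and no smaller one passed at this depth and with 3 libraries a dose.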
